A study of Mus musculus with 13 samples.

Results

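The Sox genes other than Sox10 encode transcription factors with a shared DNA-binding domain, and 10 of them were followed through every peak list of the series. They were listed by name as Sox1, Sox2 and Sox3 (SoxB1 subgroup), Sox21 (SoxB2), Sox4 and Sox11 (SoxC), Sox5 and Sox6 (SoxD), and Sox8 and Sox9 (SoxE), out of 55450 genes in the GENCODE M21 annotation of mm10. The rule names the genes by family and sets no threshold on a measured value. Open chromatin was mapped in 13 cultures of mouse oligodendrocyte progenitor cells (OPCs) by ATAC-seq, an assay that uses a transposase to insert sequencing adapters into accessible DNA. The cultures were grown from brainstem or from dorsal telencephalon (labelled cortex, and dissected with corpus callosum and hippocampus). Brains came from litters given as AMGFAP-Cre;K27M in the labels and as hGFAP-Cre crosses in the study's methods, aged postnatal day 5 to 7, and tissue was pooled by region and genotype, so 1 culture is not 1 animal. K27M cultures carried the H3.3 K27M mutation of the histone gene H3-3a, released by a Cre under a human GFAP promoter that acts in neural stem and progenitor cells, and control cultures came from littermates. All groups were enriched with an antibody to PDGFRa after depletion of endothelial cells and microglia, and all were kept in proliferation medium without differentiation. Brainstem gave 3 control and 3 K27M libraries, and telencephalon gave 3 control and 4 K27M libraries, with culture numbers 41, 51, 59 and 61. Culture 41 gave K27M libraries only, and culture 51 gave no K27M brainstem library. The comparisons ask whether accessibility at these loci differs with the region of origin or with K27M.

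Sox proteins bind the minor groove of DNA through an HMG box and bend it, and they usually act together with a partner factor. SoxB1 factors maintain neural progenitors, Sox21 counteracts them, and SoxC factors act mainly in neuronal progenitors and immature neurons. In the oligodendrocyte lineage, Sox9 is needed for glial specification, Sox8 overlaps in function with Sox9 and Sox10, and the SoxD factors Sox5 and Sox6 restrain early differentiation by interfering with SoxE factors. SoxD factors lack a transactivation domain of their own.

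The sequences below are the middle 200 bases of the part of a peak that was called in every library holding the peak, on the plus strand of mm10. For each subgroup the peak outside its own promoters that was called in all 13 libraries and had the highest mean rank of enrichment is shown. They were searched on both strands for the HMG-box motifs ACAAAG and ACAATG, and capitals mark a match in any of the sequences printed here.
Sox5 intron, chr6:144056850-144057049: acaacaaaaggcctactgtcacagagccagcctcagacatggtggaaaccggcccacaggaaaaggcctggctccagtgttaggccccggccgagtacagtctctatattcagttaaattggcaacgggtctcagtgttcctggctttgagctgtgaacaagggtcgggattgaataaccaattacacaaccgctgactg
Sox9 flank, chr11:112811344-112811543: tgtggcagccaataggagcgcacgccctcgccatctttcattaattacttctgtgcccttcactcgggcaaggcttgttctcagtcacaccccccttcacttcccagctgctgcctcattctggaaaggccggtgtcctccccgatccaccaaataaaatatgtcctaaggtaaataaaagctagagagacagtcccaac
Sox21 flank, chr14:118230800-118230999: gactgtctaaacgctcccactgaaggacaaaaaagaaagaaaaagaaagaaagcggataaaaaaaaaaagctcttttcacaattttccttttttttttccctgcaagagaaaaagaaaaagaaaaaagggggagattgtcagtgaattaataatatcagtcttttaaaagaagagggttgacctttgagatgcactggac
Sox4 flank, chr13:28958643-28958842: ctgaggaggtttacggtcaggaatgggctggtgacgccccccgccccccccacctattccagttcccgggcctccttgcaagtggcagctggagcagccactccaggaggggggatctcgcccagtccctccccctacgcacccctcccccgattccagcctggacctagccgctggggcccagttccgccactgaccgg
Sox2 flank, chr3:34638137-34638336: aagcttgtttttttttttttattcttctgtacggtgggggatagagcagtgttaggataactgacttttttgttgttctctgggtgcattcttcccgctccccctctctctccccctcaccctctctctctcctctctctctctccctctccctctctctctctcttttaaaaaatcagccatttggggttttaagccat
None of these 5 windows held either motif. Over the 16 windows that could be cut from such peaks at the 10 loci, 7 (43.8%) held at least 1 match, beside 41.3% of 3901 windows of the same length at all peaks of this kind in the genome.

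The libraries listed from 16879 (control telencephalon 59) to 52466 (control brainstem 61) peaks, and with no counts in the lists their read depth is unknown. A missing peak means only that it was not called, and in bulk cultures fewer open cells and less signal per cell cannot be told apart. Nothing ties a library to 1 animal, so p-values measure the spread between these cultures. From 7 to 8 of 8 OPC marker genes had a promoter peak in each library, with Cspg4 in 3 libraries and Pdgfra, Olig1, Olig2 and Sox10 in all 13. The ranges were 3 to 6 of 6 for astrocyte markers, 4 to 8 of 8 for neuron markers, 1 to 4 of 6 for mature oligodendrocyte markers, 0 to 3 of 6 for microglia markers and 0 to 2 of 5 for endothelial markers. Mog, Mag, Cx3cr1, Csf1r, C1qa, Cdh5 and Tek had no promoter peak in any library. Other genes of the same lists had one in most or all. Gfap, Gja1, Slc1a2, Snap25, Syt1, Tubb3 and Cnp had one in all 13. P2ry12, Mbp and Gad1 had one in 12, and Flt1, Slc1a3, Rbfox3 and Slc17a7 in 11. Each of these ranges overlapped between brainstem and telencephalon, and their part in the results was not tested.

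The promoters of 9 of the 10 genes carried a called peak in all 13 libraries. A promoter here runs from 2 kb before to 1 kb after any annotated transcription start site, and 9211 of 21951 protein-coding genes (42.0%) had such a peak in every library. The exception was Sox5, with a promoter peak in 12 libraries and none in control telencephalon 59, the shortest list. In lists of equal number, with the 16879 peaks of smallest p kept in each library, Sox2, Sox21, Sox4, Sox11, Sox6 and Sox9 were still called in all 13. Sox1 was then called in 10, Sox3 in 7, Sox5 in 5 and Sox8 in 3. No gene of the list was without a promoter peak. Among the other 10 Sox genes of the annotation only Sox10 and Sox12 had one in every library and Sry had one in none. The list was chosen with earlier results of these data known, so this contrast is not independent of them.

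Promoter strength was read as the fold enrichment of the strongest peak over local background. The fold of a broad peak is an average over its length. Among the SoxB1 genes, fold was 3.02 ± 0.48 (SD, n = 13 libraries) at Sox1 (chr8:12395295-12400126, plus strand), 2.90 ± 0.36 at Sox2 (chr3:34650405-34652461, plus strand) and 2.82 ± 0.33 at Sox3 (chrX:60891366-60893430, minus strand). Sox21 (chr14:118233232-118237030, minus strand) was at 3.17 ± 0.29. Of the SoxC genes, Sox11 (chr12:27334264-27342574, minus strand) was at 3.10 ± 0.36, with Sox4 (chr13:28948919-28953713, minus strand) at 2.65 ± 0.20. Sox1 had the widest spread of these 6, from 2.30 in the lowest library to 3.93 in the highest, while Sox4 stayed between 2.30 and 2.97.

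**Figure D1:**
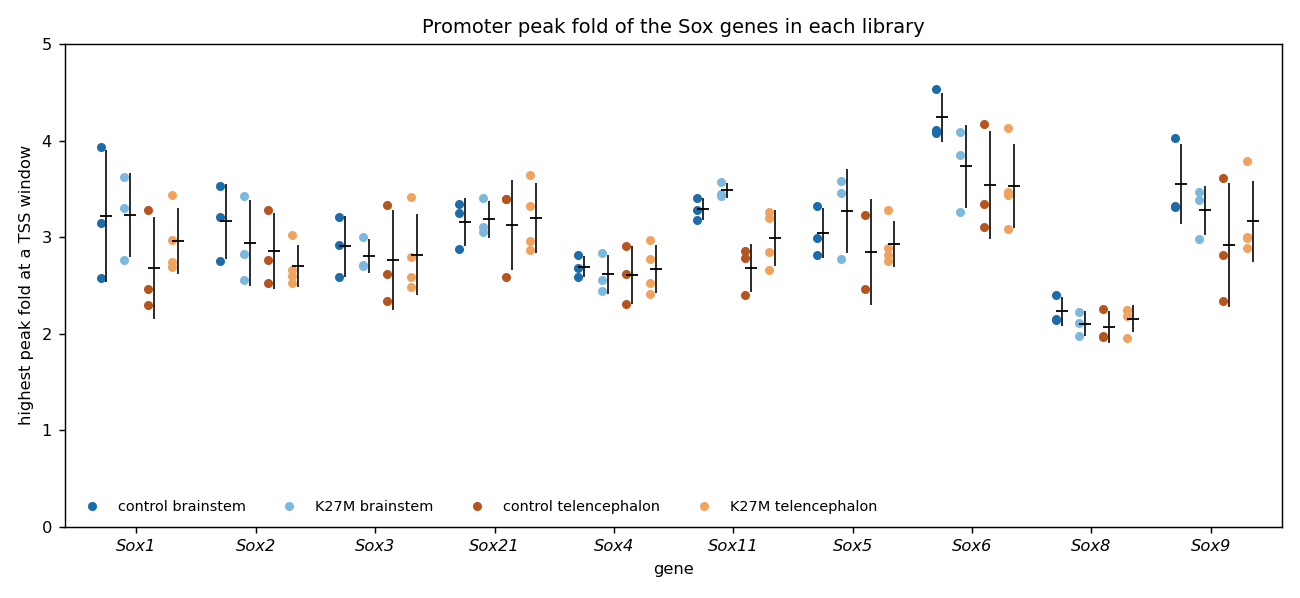
Promoter peak fold of each gene (vertical axis, enrichment of the strongest promoter peak over local background) by gene, with 1 point per library, coloured by group, and a bar for the mean and SD of the group. Sox6 is highest with a mean over all libraries of 3.74 and Sox8 lowest with 2.14. At Sox11 the brainstem libraries start at 3.18 while the telencephalon libraries end at 3.26. The folds shown are not centred on the library median, and after centring the regions overlap more widely at Sox11.

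The SoxD genes are long. Sox6 (chr7:115470872-116038796, minus strand, 568 kb) had the highest promoter fold of the list, 3.74 ± 0.48 (SD, n = 13), and Sox5 (chr6:143828425-144781977, minus strand, 954 kb) was at 3.03 ± 0.34 (n = 12). Sox6 has 13 start sites and Sox5 has 12, against 1 or 2 for the other genes, so their highest promoter fold was taken over more windows. At both genes the strongest promoter peak was not at the same start site in every library. At Sox6, 3 promoter peaks were present in all 13 libraries. One at chr7:115824311-115826502, at an internal start site, had a mean fold of 3.72 ± 0.51, one at chr7:116038670-116040891, at the outermost start, 3.20 ± 0.33, and a wide one at chr7:116029849-116034804 had 2.30 ± 0.15. The outermost peak also lies at the start of 1110004F10Rik, and the wide one at that of Sox6os, so their accessibility cannot be assigned to Sox6 alone.

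The 2 SoxE genes lay near opposite ends of the list. Sox9 (chr11:112782224-112787760, plus strand) had a promoter fold of 3.22 ± 0.45 (SD, n = 13). Sox8 (chr17:25565892-25570686, minus strand) had 2.14 ± 0.14, with a lowest value of 1.95, a median of 2.15 and a highest of 2.41. Among the 11483 genes with a promoter peak in all 13 libraries, 0 had a lower mean promoter fold than Sox8 on the log2 scale. Sox9 exceeded 28.7% of these genes, Sox6 62.9%, and the other 7 genes from 4.15% (Sox4) to 26.5% (Sox21). In its own lists the Sox8 peak ranked at a mean fold percentile of 2.15, where 100 would be the strongest peak of the library. The Sox8 promoter peak was 929 bp long in the median library and ranged from 403 to 4051 bp.

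Ordered by mean promoter fold the genes were Sox6, Sox9, Sox21, Sox11, Sox5, Sox1, Sox2, Sox3, Sox4 and Sox8. Only the ends of this order were stable across libraries. Sox6 was above Sox9 in 12 of 13 libraries, by 0.22 ± 0.13 (SD) on the log2 scale, and Sox4 was above Sox8 in 13 of 13, by 0.31 ± 0.10. Every other pair of neighbours traded places, with the gene of higher mean above the next one in 6 of 12 to 9 of 13 libraries. Sox4 was below Sox3 in 9 of 13. These differences were smaller than their own SD over libraries, so neighbours in the middle of the order did not differ beyond their spread.

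Several promoters are shared with neighbours. The Sox1 peak also lies at the start of Gm25239, that of Sox3 at Gm14662, that of Sox21 at Gm4675, that of Sox8 at 2810468N07Rik and that of Sox9 at BC006965. The promoter peaks of Sox2, Sox4, Sox11 and Sox5 overlapped no other gene's start window. RefSeq promoter sequences (GRCm38.p6) were at hand for 8 of the 10 genes. In these windows around the start, GC content was 70.7% at Sox1, 66.3% at both Sox2 and Sox8, 65.7% at Sox21, 58.7% at Sox11 and 52% at Sox4, beside a median of 52.7% over 32851 promoters. At the listed Sox5 start it was 39.7%, and at the Sox6 starts it ranged from 36.7% to 63.3%.

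By region, none of the 9 promoters tested passed an adjusted p of 0.05 in a limma fit over all 11483 shared promoters, each library centred on its median and culture number kept as a block. In that fit 0.0174% of promoters were called at an adjusted p under 0.05, and 5.08% had an unadjusted p under 0.05. Sox11 was the 1 gene of the list with an unadjusted p under 0.05. In brainstem libraries its promoter fold ran from a lowest value of 3.18 over a median of 3.41 to a highest of 3.57. In telencephalon libraries it ran from 2.40 over 2.84 to 3.26. Before centring, the regions overlapped only between 3.18 and 3.26. On the centred log2 scale the values ran from -0.31 to 0.09 in brainstem and from -0.47 to -0.06 in telencephalon. The regions thus overlapped more widely on the scale that was tested.

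After centring, the Sox11 promoter was 0.19 ± 0.07 (SE) higher in brainstem on the log2 scale, with an adjusted p of 0.897. Of the 6 pairs of brainstem and telencephalon libraries with the same genotype and culture number, 5 were higher in brainstem and culture 41 of K27M was lower. Leaving out K27M brainstem 61 lowered the difference to 0.11, and leaving out K27M brainstem 41 raised it to 0.26. The unadjusted p was above 0.05 without K27M brainstem 61, without control brainstem 59, where the difference was 0.15, and without control telencephalon 61, where it was also 0.15. The 250 bases before the RefSeq start of Sox11, which lie inside this peak, are printed in the direction of the gene (minus strand) because this promoter had the lowest p by region.
Sox11 upstream, chr12:27342719-27342968: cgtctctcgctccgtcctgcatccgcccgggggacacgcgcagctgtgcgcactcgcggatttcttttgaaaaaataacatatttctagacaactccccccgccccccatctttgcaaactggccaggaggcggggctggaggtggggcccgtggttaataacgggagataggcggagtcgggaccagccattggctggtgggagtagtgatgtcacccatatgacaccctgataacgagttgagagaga
They held neither motif, and 25.2% of RefSeq promoters held at least 1 match over the same length.

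The other promoters showed smaller regional differences. The log2 difference of brainstem from telencephalon was 0.11 ± 0.09 (SE) at Sox1, 0.11 ± 0.07 at Sox9, 0.10 ± 0.07 at Sox6 and 0.06 ± 0.06 at Sox2. It was negative at Sox3, Sox21, Sox4 and Sox8, from -0.07 to -0.04. In all, 5 differences were positive and 4 negative, with a median of 0.06 over the 9 genes beside -0.01 over all promoters tested. Library medians were themselves 0.07 higher in brainstem, and without centring all 9 differences were positive. Sox5, which was left out of the fit, had a promoter fold of 3.16 ± 0.34 (SD, n = 6) in brainstem and 2.90 ± 0.31 (n = 6) in telencephalon. These means mix start sites. The strongest Sox5 peak was, for example, chr6:144781504-144782468 in control brainstem 51 and chr6:144208904-144210743 in K27M brainstem 41, and it varied in the same way among telencephalon libraries.

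**Figure D2:**
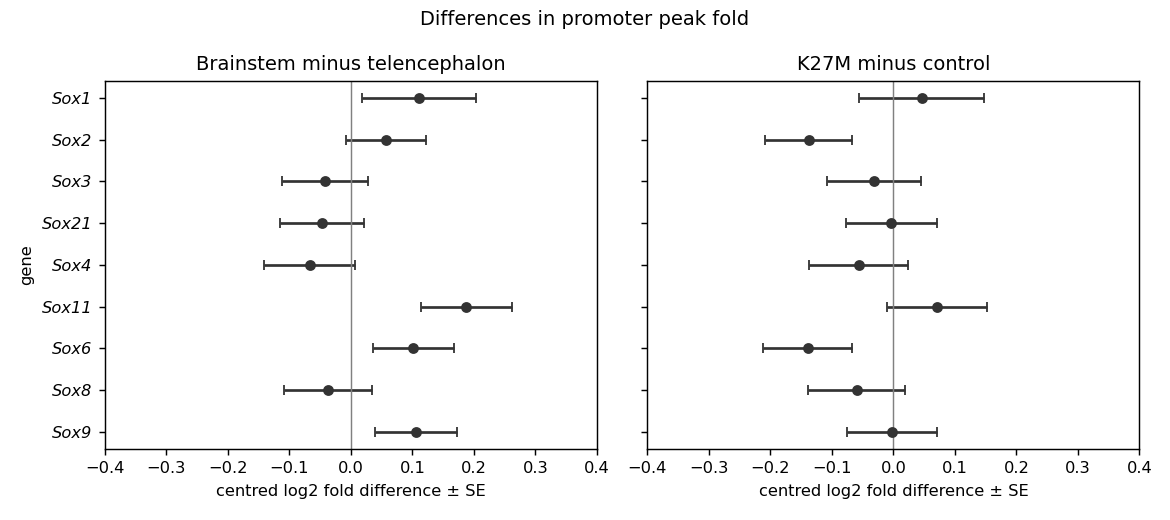
Difference in promoter fold on the centred log2 scale (horizontal axis) by gene, with the limma estimate as a point and its standard error as a bar, brainstem minus telencephalon on the left and K27M minus control on the right. Sox11 lies farthest to the right by region, at 0.19, and Sox2 and Sox6 lie farthest to the left by genotype, both at -0.14, while Sox5 is not shown because it lacked a promoter peak in 1 library.

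By genotype, again 0 of 9 promoters were called (0% of all promoters tested) and none had an unadjusted p under 0.05, beside 4.35% of all. The lowest p-values belonged to Sox2 and Sox6. Sox2 promoter fold ran from 2.52 over a median of 2.66 to 3.43 in K27M libraries, and from 2.52 over 2.98 to 3.53 in control libraries. Sox6 ran from 3.08 over 3.47 to 4.13 in K27M and from 3.10 over 4.10 to 4.53 in control. Before centring, the genotypes overlapped over most of their range at both genes. On the centred log2 scale that was tested they overlapped less. Sox2 ran from -0.43 to -0.23 in K27M and from -0.29 to -0.12 in control. Sox6 ran from -0.15 to 0.10 in K27M and from 0.05 to 0.28 in control.

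The limma difference, K27M minus control, was -0.14 ± 0.07 (SE, log2) at Sox2 and -0.14 ± 0.07 at Sox6, and both adjusted p-values were 0.999. In each of the 5 pairs with the same region and culture number the centred fold was lower in K27M, at Sox2 by between -0.20 and -0.05 and at Sox6 by between -0.25 and -0.01. The Sox6 difference of -0.25, in telencephalon culture 59, was between peaks at different start sites. These were chr7:115597409-115597698 in K27M and chr7:116039716-116040426 in control, while the other Sox6 pairs compared the internal promoter peak. Without the replicate block, and in lists of equal number, both genes had an unadjusted p under 0.05, while the adjusted p-values were 0.999 and 0.998. Sox11 was 0.07 ± 0.08 and Sox1 0.05 ± 0.10 higher in K27M, and the remaining 5 genes lay between -0.06 and 0.00. The interaction of region and genotype was called at 0 of the 9 promoters (0% of all), and 0 had an unadjusted p under 0.05, beside 3.77% of all promoters.

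Beyond the promoters, peaks of all libraries that overlapped were joined into merged peaks, and 223 merged peaks lay in or within 50 kb of the 10 genes. Of these, 28 (12.6%) were present in every library and 114 (51.1%) were seen once, beside 13.1% and 43.1% of all 99746 merged peaks. The SoxD genes held most of them, with 100 at Sox6 and 55 at Sox5. Sox2 had 19, Sox8 12, Sox1 and Sox4 8 each, Sox21 7, Sox11 and Sox9 6 each, and Sox3 2. The loci differ in length, so these counts are not a measure of density.

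Peaks present in all 13 libraries and outside the promoters of the gene were spread unevenly over the subgroups. SoxD genes, which have by far the longest loci, held 9 of the 17, all in introns, and SoxE genes 5. Like the counts above, these are not a measure of density. Sox2, Sox21 and Sox4 had 1 each, and Sox1, Sox3 and Sox11 had none. The strongest was the Sox5 intron peak printed first (chr6:144056064-144057554), 109 kb from the nearest Sox5 start site. Its fold was 4.29 ± 0.48 (SD, n = 13), its mean fold percentile 93.8, and its lowest value 3.48. Its mean was above that of the Sox5 promoter. A second Sox5 intron peak at chr6:144312506-144313623 had a fold of 3.77 ± 0.46.

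In Sox6, 7 intron peaks were present in all 13 libraries. The strongest, at chr7:115729790-115731156 and 67.4 kb from a Sox6 start, had a fold of 3.81 ± 0.50 (SD, n = 13), and one at chr7:115563868-115565404 had 3.62 ± 0.44. The peak printed for Sox9 (chr11:112810602-112812567), which lies 28.4 kb from the Sox9 start and in no annotated gene, had a fold of 3.63 ± 0.32, above the Sox9 promoter mean. The Sox21 peak (chr14:118229879-118231947, 5.08 kb from the start) had 3.35 ± 0.23 and was likewise in no annotated gene. At Sox4 the peak at chr13:28957882-28959941 had 2.84 ± 0.39. The Sox2 flank peak (chr3:34637007-34639812) was weak, at 2.43 ± 0.22 and a mean fold percentile of 13.9, and it covers start sites of Sox2ot and Mir1897. Near Sox8, the 2 strongest peaks, at chr17:25608431-25610340 (3.30 ± 0.45, inside the gene Lmf1) and chr17:25555699-25557315 (3.00 ± 0.38, inside AC131323.3), were both above the Sox8 promoter.

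No difference between the groups was called at these peaks. In the limma fit over all 13075 merged peaks present in every library, none of the 28 was called by region (0.0229% of all called at an adjusted p under 0.05), and 2 of 28 had an unadjusted p under 0.05, beside 6.36% of all. By genotype 0 were called (0% of all) and 1 had an unadjusted p under 0.05, beside 4.48%. For the interaction the counts were 0 (0% of all) and 1, beside 3.97%. The Sox5 peak at chr6:144056064 differed by 0.05 ± 0.07 (SE, log2) between regions and 0.03 ± 0.08 between genotypes. At the Sox9 flank peak the values were 0.01 ± 0.08 and -0.12 ± 0.09.

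The lowest regional p belonged to a Sox6 intron peak at chr7:115615033-115616943, 17.1 kb from a start site. Its fold ran from 2.78 over a median of 3.37 to 3.71 in brainstem libraries. In telencephalon libraries it ran from 2.83 over 3.64 to 4.55, so the regions overlapped widely before centring. After centring it was -0.21 ± 0.07 (SE, log2) in brainstem against telencephalon, with an adjusted p of 0.644. Its sequence is shown because it had the lowest p by region, with the match to ACAAAG in capitals.
Sox6 intron, chr7:115615813-115616012: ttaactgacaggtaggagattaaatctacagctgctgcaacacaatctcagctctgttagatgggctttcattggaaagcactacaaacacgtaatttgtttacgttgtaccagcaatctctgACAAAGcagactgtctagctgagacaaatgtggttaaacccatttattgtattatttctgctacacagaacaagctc
The match begins at base 124 from the left on the printed strand. The second-lowest regional p was that of the Sox11 promoter peak, in the opposite direction, at 0.20 ± 0.08 (adjusted p = 0.71). The next was the internal Sox6 promoter peak at chr7:115824311-115826502, at 0.13 ± 0.07 (adjusted p = 0.818).

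The lowest p by genotype was that of the outermost Sox6 promoter peak (chr7:116038670-116040891). In K27M libraries its fold ran from 2.63 over a median of 3.07 to 3.54, and in control libraries from 3.10 over 3.36 to 3.71. The difference on the centred log2 scale was -0.22 ± 0.08 (SE) in K27M against control, with an adjusted p of 0.957. Before centring, the genotypes overlapped between 3.10 and 3.54. Next came the Sox2 promoter peak at chr3:34647864-34651034, at -0.13 ± 0.07, and the internal Sox6 promoter peak, at -0.14 ± 0.08, both with an adjusted p of 0.999. The lowest interaction p, 0.999 after adjustment, was at a Sox6 intron peak at chr7:115721220-115722983.

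Peaks called in only part of the libraries were compared by presence. Of the 223 merged peaks, 19 were found in 5 to 8 libraries and were tested by Fisher's exact test over 11706 merged peaks. The smallest p this test can give here is 0.000583. A single peak could therefore not pass the adjustment over 11706 peaks by either contrast. The largest numbers were at Sox6 with 7 and Sox5 with 6. By region 0 were called (0% of all) and 2 had an unadjusted p under 0.05, beside 2.36% of all. Both belonged to Sox5. A peak at chr6:144154766-144155448 was present in 7 of 7 telencephalon libraries and in 1 of 6 brainstem libraries, K27M brainstem 41 (two-sided exact p = 0.00466, adjusted 0.84). Its fold ran from 2.55 over a median of 2.67 to 3.22 in telencephalon libraries and was 2.41 in the single brainstem library.

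This Sox5 peak was called in control telencephalon 59 as well, the library with the fewest peaks, with a fold of 3.14. With lists cut to an equal number it was left in 2 telencephalon and 0 brainstem libraries. It overlaps a coding exon of Sox5 (chr6:144154992-144155223) that is annotated in several transcripts, and the flanking intron. The window below is shown because this peak had the lowest exact p of the loci, with 2 matches to ACAATG on the opposite strand, read here as CATTGT, in capitals.
Sox5 exon and intron, chr6:144155140-144155339: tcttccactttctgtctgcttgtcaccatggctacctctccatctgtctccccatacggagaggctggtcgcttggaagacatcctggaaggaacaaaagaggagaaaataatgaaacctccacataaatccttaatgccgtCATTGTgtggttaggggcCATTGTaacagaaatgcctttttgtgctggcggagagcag
The second Sox5 peak, in the flank at chr6:144814808-144815327, was present in 5 of 7 telencephalon and 0 of 6 brainstem libraries (exact p = 0.021, adjusted 1). It lies 32.8 kb from the nearest start and in no annotated gene. Another, in an intron at chr6:144082190-144083184, was in 5 telencephalon libraries and 1 brainstem library (exact p = 0.103). Another Sox5 peak, at chr6:144264196-144265216 in the equal-number lists, was in 6 of 7 telencephalon and 1 of 6 brainstem libraries (exact p = 0.0291, adjusted 0.501). In the full lists that peak was called in more than 8 libraries, outside the range tested by presence, so its count here depends on the cut. No merged peak of the 223 was present in every library of one region or genotype and absent from every library of the other.

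**Figure D3:**
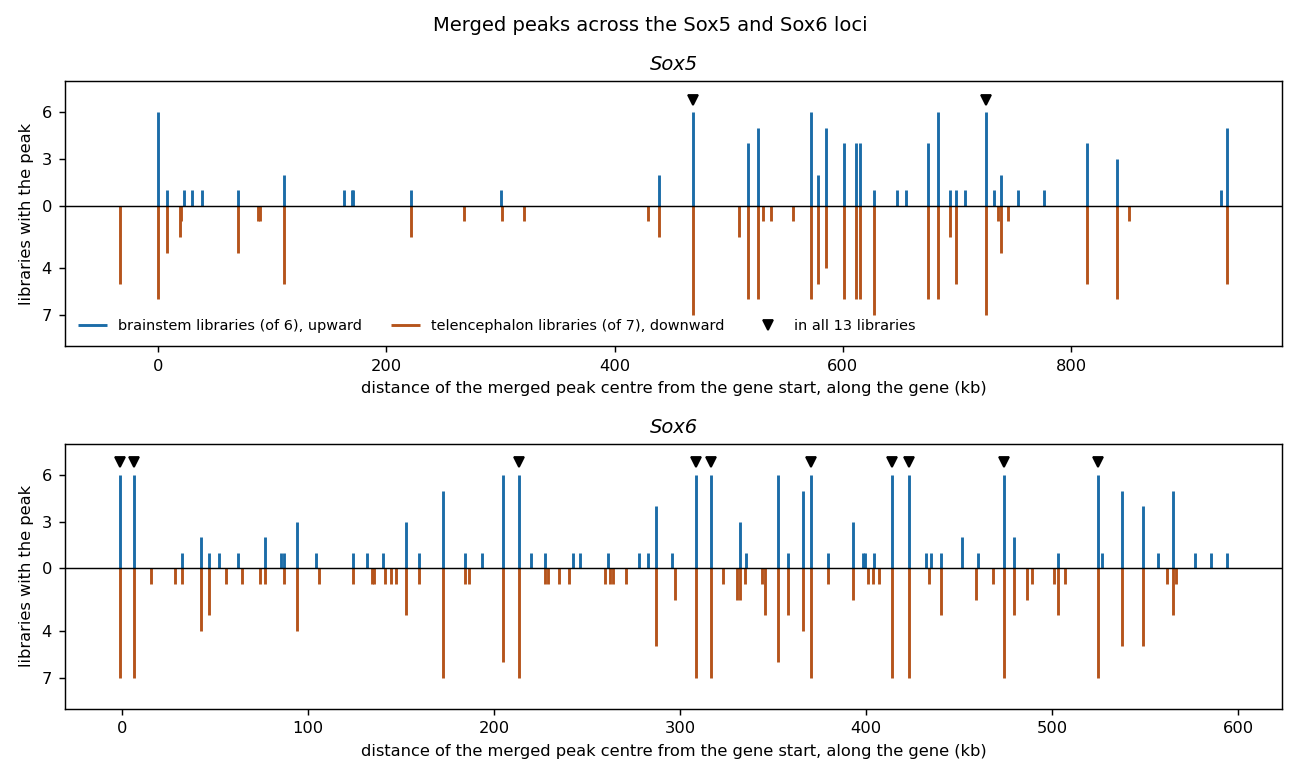
Number of libraries holding each merged peak (vertical axis, brainstem upward to 6 and telencephalon downward to 7) against the distance of the peak centre from the outermost gene start along the gene in kb, for Sox5 and Sox6, with triangles over peaks present in all 13 libraries. Sox6 carries 10 triangles and Sox5 carries 2, and 1 Sox5 line reaches 7 on the telencephalon side and 1 on the brainstem side.

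By genotype 0 of the 19 were called (0% of all) and 3 had an unadjusted p under 0.05, beside 1.26% of all. All were called more often in K27M. A Sox6 intron peak at chr7:115645199-115646690 was in 5 of 7 K27M and 0 of 6 control libraries (exact p = 0.021). A peak downstream of Sox2, at chr3:34666855-34668504 inside Sox2ot, and a Sox5 peak at the internal start near chr6:144203397-144204729 were each in 6 of 7 K27M and 1 of 6 control libraries (exact p = 0.0291). All adjusted p-values were 1. None of these 3 peaks was left in any library when the lists were cut to an equal number, and with the replicate block 0 had an unadjusted p under 0.05. Fisher's exact test takes no account of culture number, and culture 41 had no control library.

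When whole loci were compared by the sequence under peaks in lists of equal number, Sox5 had the lowest p of the 10 by either contrast in the test without a replicate block, but not by region with it. In brainstem libraries the Sox5 locus, its gene body with 50 kb on either side, had a lowest value of 3.31 kb, a median of 3.98 kb and a highest of 5.27 kb under peaks. In telencephalon libraries the values were 3.03, 5.30 and 9.17 kb. The 2 regions overlapped, and the 4 highest libraries were K27M telencephalon. By group the means were 3.76 ± 0.52 kb (SD, n = 3) in control brainstem, 4.47 ± 0.94 kb (n = 3) in K27M brainstem, 4.27 ± 1.08 kb (n = 3) in control telencephalon and 7.08 ± 1.69 kb (n = 4) in K27M telencephalon.

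The exact permutation test of 700 arrangements of region labels within genotype gave a difference of -1760 bp, brainstem minus telencephalon, with p = 0.0243. For genotype within region it gave 1953 bp more in K27M, with an exact p of 0.00857. Over 17798 loci both adjusted p-values were 1, so neither was called (0% of all loci by either contrast). The smallest p that 700 arrangements can give is 0.00143. A single locus could therefore not pass the adjustment over 17798 loci, whatever its difference. Unadjusted p-values under 0.05 made up 3.19% of loci by region and 2.91% by genotype. With labels exchanged only within culture number (the replicate block) the exact p-values for Sox5 were 0.0972 and 0.0648. The smallest possible p was then 0.00463 by region and 0.00926 by genotype. By region 2 other loci then had the lower exact p-values, Sox4 with 877 bp more in brainstem (exact p = 0.037) and Sox2 with 648 bp more (exact p = 0.0463), both with an adjusted p of 1. In the test without the block Sox4 was at 874 bp (exact p = 0.0957) and Sox2 at 409 bp (exact p = 0.667). Covered sequence overlapped between the regions at both, from 2.85 to 5.47 kb in brainstem and 1.60 to 3.55 kb in telencephalon at Sox4, and from 1.36 to 5.50 kb and 1.29 to 4.23 kb at Sox2. In the full lists the exact p-values for Sox5 were 0.193 and 0.239. Sox6 had values of similar size and direction, -1892 bp in brainstem against telencephalon (exact p = 0.114) and 1941 bp more in K27M (exact p = 0.11). Without the block, the other 8 loci had exact p-values of 0.0886 or more by region and 0.0929 or more by genotype.

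**Figure D4:**
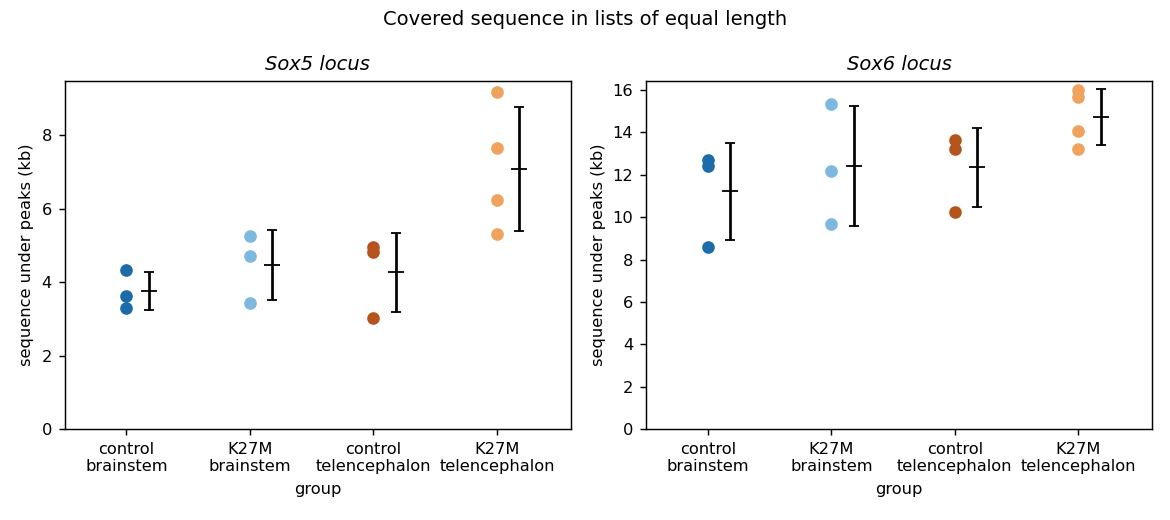
Sequence under peaks in the Sox5 and Sox6 loci (vertical axis, kb, from 0) in each of the 4 groups, with 1 point per library and the mean and SD of each group beside them, in lists cut to an equal number. At Sox5 the 4 K27M telencephalon libraries, from 5.30 to 9.17 kb, lie above the libraries of every other group, and at Sox6 the groups overlap.

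Factors that act with Sox proteins were given as counts. Among 6 POU genes, whose products pair with Sox factors on DNA, 5 had a promoter peak in all 13 libraries and Pou6f1 had none. Among 11 other factors of the oligodendrocyte lineage, 7 did, and Nkx6-2, Myrf, Tcf7l2 and Zeb2 were called in 6 to 12 libraries. In the same limma fit 0 genes of either list were called by region or genotype. By region the unadjusted p was under 0.05 for 1 POU gene, Pou2f1, at -0.20 in brainstem against telencephalon, and for 0 of the lineage factors.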

How the data were processed

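ATAC-seq was done on 13 cultures of OPCs. Per the study's methods and the submitters' processing notes, the authors ran the nf-core ATAC-seq pipeline, in which BWA 0.7.17-r1188 placed reads on mm10 and MACS2 2.2.7.1 found broad peaks library by library. No cutoff for the ATAC-seq peaks is stated in the sources used here, and the lowest deposited −log10 q-value was between 1.00 and 1.01 in every list. The deposited column 7 is the fold enrichment over local background, a ratio averaged over the peak. The deposited columns 8 and 9 hold the −log10 p-value and −log10 q-value, and the deposited column 5 is a display score, not used here. Values are not normalised between libraries, and no counts were given, so neither depth nor counting intervals could be had.

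Members and lists were chosen with earlier results of these data known. Named peaks were the 2 strongest shared peaks outside promoters of each gene, and the 3 with the lowest p by region and by genotype in the fold and detection tests. Log2 fold was centred on the library median and fitted with limma 3.58.1 (R 4.3.3) with region, genotype and culture number, for features present in all 13 libraries. The interaction of region and genotype was a term of the same fit. Region effects are therefore averaged over genotypes, and genotype effects over regions. Culture numbers pair libraries because the study assayed matched cultures together. Residuals correlated at a mean r of 0.08 over 16 library pairs with the same number (range -0.11 to 0.29) and at -0.03 over 47 pairs with different numbers. Detection in 5 to 8 libraries was tested by two-sided Fisher's exact test, and covered sequence by two-sided exact permutation. P-values were adjusted by Benjamini-Hochberg over all features of a test. Equal-number lists kept the peaks with the smallest p. The limma step was tested on simulated data. Other scalings, thresholds, overlaps, distances and left-out libraries were tried as alternatives. Sequences came from the mm10 genome and RefSeq promoters, without entries for Sox3 and Sox9.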

Additional observations from a re-analysis of the deposited data

Results flagged for a closer look

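Among 20 values over the 10 genes in the group of 4 K27M telencephalon libraries, 2 had a library far from the others, and chance alone flags about 1 in 20 such values. The Sox9 promoter fold was 3.79 in K27M telencephalon 51, and the next highest library of that group was at 3.00. This is the fold before centring. The median fold over shared promoters was 4.01 in K27M telencephalon 51 and from 3.37 to 3.43 in the others of the group. On the centred log2 scale Sox9 was at -0.08 in K27M telencephalon 51 and from -0.24 to -0.17 in the others. The Sox1 locus had 1.94 kb under peaks in K27M telencephalon 61 in lists of equal number, and the next highest library was at 1.07 kb. The causes were not tested.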

How the results depend on the processing

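No Sox feature was called at an adjusted p under 0.05 in any test or alternative that could be run. In the main detection and locus tests a single feature could not have been called. Under the p limit of 1e-10 no Sox promoter or shared peak was left to test in the limma fits. Over all genes, promoters called by region numbered 2, and 0 without centring, 0 at the p limit and 4 with no replicate block. Leaving out 1 library at a time gave 2 to 6. Shared peaks called by region numbered 3, and 0 without centring, 0 with percentiles, 0 at the p limit, 1 in equal-number lists and 1 for peaks in at least 10 libraries, with 0 to 4 when 1 library was left out. By genotype, leaving out 1 library gave 0 to 1 promoters and 0 to 2 shared peaks. The replicate block changed no adjusted call at the Sox genes.

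Small promoter differences changed sign. By region, without centring, Sox3 was at 0.038, Sox21 at 0.032, Sox4 at 0.013 and Sox8 at 0.042 on the log2 scale, and in percentile points Sox3 was at 2.02, Sox21 at 1.51 and Sox8 at 0.57. By genotype, in percentile points, Sox3 was at 1.29, Sox21 at 5.86, Sox8 at 0.17 and Sox9 at 5.91, and without centring Sox21 and Sox9 were both at 0.027. With 1 library left out, the region difference ran from -0.093 to 4.3e-05 at Sox21, -0.11 to 0.021 at Sox4 and -0.11 to 0.0076 at Sox8. The genotype difference ran from -0.066 to 0.22 at Sox1, -0.11 to 0.011 at Sox3, -0.065 to 0.041 at Sox21, -0.032 to 0.12 at Sox11, -0.13 to 0.0012 at Sox8 and -0.052 to 0.042 at Sox9. The causes were not tested.

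At the Sox5 locus, leaving out 1 library gave exact p-values by genotype from 0.00286 to 0.0457. By region they ran from 0.00286 to 0.0743, and were above 0.05 without control brainstem 51 or 61 and without K27M telencephalon 41, 51 or 61. At the p limit its exact p-values were 0.794 by region and 0.534 by genotype, and Sox11 was the 1 locus with an exact p under 0.05 by region, at 1455 bp more in brainstem (exact p = 0.0243, adjusted 1). Read depth, which the peak lists do not give, limits every statement on a missing peak.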
